A study of Mus musculus with 31 samples.

Results

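Clobetasol propionate, a potent glucocorticoid (GC), was compared with control treatment in melanoma tumors grown from GC receptor knockout (GR KO) cells. The 10 tumors, 5 GC-treated and 5 control, were chosen by their genotype and treatment labels from the 31 libraries of the study. The study sequenced the 3′ ends of messenger RNA (QuantSeq) in tumors and cultures of the mouse melanoma line 20967. The line came from C57BL/6 mice carrying Nras+LSL-G12D;Tyr::CreERT2+/o, in which the melanocyte promoter *Tyr* drives an inducible Cre. GR KO cells are 1 single-cell clone of this line, edited with Cas9 at *Nr3c1*, the gene of GR. All 10 GR KO tumors grew in the skin of wild type C57BL/6 mice, whose own cells keep GR. Control GR KO tumors (n = 5) received a treatment that the labels name control without giving its content. The methods of the study name cetraben cream as the control for topical drugs. GC-treated GR KO tumors (n = 5) received clobetasol propionate as a 0.05% ointment on the skin, 3 times weekly. With a cream as control, the base differs along with the drug, and their effects cannot be told apart. The age and sex of the mice are not in the labels. Used for comparison were 5 control and 5 GC-treated parental tumors, from the unedited line in the same host strain, and 6 cultures of GR KO cells, 3 with DMSO and 3 with clobetasol propionate. Library totals lay between 15922706 and 23643511 reads in the GR KO tumors.

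GC molecules cross the cell membrane and bind GR, which moves to the nucleus, binds DNA and switches on genes such as *Tsc22d3*, *Fkbp5* and *Per1*. GR also restrains NF-κB and AP-1, the transcription factors behind many cytokine and chemokine genes, and GC ointments are used on the skin to damp inflammation. A tumor of GR KO cells is a mixture, in which the cancer cells lack the receptor while leukocytes, fibroblasts, vessels and epidermis of the host have it. The comparison asks what GC does to a tumor when the direct response of its cancer cells is missing.

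*Nr3c1* messenger RNA was present in all tumors and in GR KO cultures. The 3′ tags do not read the edited site, so the indel could not be checked. Levels are reads per 1e6 after TMM scaling (CPM) in the order of tumors 1 to 5, and log2 fold changes (log2FC) carry their standard error. *Nr3c1* (ENSMUSG00000024431) was at 20.7, 27.3, 31.4, 31.8 and 23.5 CPM in controls and 47.9, 21.7, 58, 32.5 and 49.4 CPM under GC (log2FC 0.64 ± 0.24, adjusted p = 0.107). Tumors 1, 3, 4 and 5 under GC lay above every control, and GC-treated tumor 2 lay among the controls. Parental controls had 63.4, 57.1, 44.9, 55.6 and 52.2 CPM and parental GC-treated tumors 53.4, 24.4, 48.2, 37.3 and 49.8 CPM. In GR KO cultures the DMSO values were 24.8, 21 and 16.4 CPM and the GC values 20.9, 22.5 and 13.1 CPM, so the transcript was also made by the edited cells. Of 13 tested genes for GR, its chaperones and coregulators, 0 were differentially expressed in edgeR (5 with an unadjusted p under 0.05, DESeq2 1), with a median log2FC of 0.07 [-0.02 to 0.20], and the count was 1 without GC-treated tumor 4, 2 without GC-treated tumor 2 and 3 without control tumor 4. *Hsp90ab1*, the chaperone that holds GR ready for its ligand, had a log2FC of -0.05 ± 0.21.

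Pigment cell markers were low in all 10 tumors, so the melanoma identity of the tissue rests on its label. *Tyr*, *Gpr143* and *Oca2*, which serve pigment synthesis, had 0 reads in all 10, and *Tyrp1* and *Slc45a2* were too low to be tested. The lineage list summed to 4.99, 3.15 and 4.36 CPM in the 3 GR KO DMSO cultures, to 108, 73.5, 71, 53.9 and 52.4 CPM in control tumors and to 62.2, 67.6, 56, 75.5 and 49.2 CPM under GC, and the tumor groups overlapped. *Mitf*, the lineage's master regulator and the most abundant member, had a log2FC of 0.35 ± 0.22. Of 11 tested members 1 fell (median log2FC -0.44 [-0.72 to 0.69]): *Ednrb*, an endothelin receptor, went from 13.4 ± 2.66 to 6.1 ± 1.06 CPM (SD, n = 5, log2FC -1.14 ± 0.27, adjusted p = 0.0157) without overlap, and was at or near 0 in cultures. *Ednrb* (-1.05) missed without controls 1 and 5.

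Control GR KO tumors varied in how many genes they showed. With every tumor thinned to 15528066 reads, 13406, 14804, 15144, 16786 and 14261 genes had a read in control tumors 1 to 5. GC-treated tumors 1 to 5 showed 16653, 15553, 16666, 15149 and 16436 genes. Controls 1, 2, 3 and 5 were below every GC-treated tumor, and control 4 was above all of them. The means were 14880.2 ± 1251.41 and 16091.4 ± 696.832 genes (SD, n = 5), a difference of 1211.2 (two-sided exact permutation test, p = 0.103). Without control tumor 4 the difference was 1687.65 genes (exact p = 0.0159), and with each other tumor left out it was 842.65 to 1446.8 genes (exact p = 0.0635 to 0.214). Parental means were 16181.8 ± 528.098 genes in controls and 16387.8 ± 546.985 under GC (SD, n = 5), a difference of 206 (exact p = 0.587). GR KO controls thus had the lowest mean of all tumor groups, and GC-treated GR KO tumors lay near parental controls.

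The shares of reads in a few gene classes differed as well. The 100 most abundant genes took 37.57, 33.98, 31.4, 24.34 and 38.43% of the reads in controls and 23.97, 27.27, 23.73, 29.88 and 24.52% under GC (means 33.1 ± 5.67% and 25.9 ± 2.65%, SD, n = 5, exact p = 0.0397). Control tumor 4 had a share as low as the GC-treated tumors. Parental means were 25.9 ± 1.70% in controls and 26.1 ± 1.94% under GC (SD, n = 5), so GR KO controls had the highest mean of all tumor groups. Mitochondrially encoded transcripts took 0.587, 0.629, 0.755, 1.15 and 0.976% of the reads in controls and 1.48, 1.53, 1.90, 1.68 and 1.99% under GC. Here every GC-treated tumor lay above every control (exact p = 0.00794, the smallest that 5 against 5 allow). Means were 0.818 ± 0.238% and 1.72 ± 0.225% in GR KO tumors and 1.60 ± 0.498% and 1.87 ± 0.393% in parental tumors (SD, n = 5). GR KO controls had the lowest mean, and GC-treated GR KO tumors lay near parental controls. The parental groups overlapped (exact p = 0.421), and the difference between genotypes in this share was not tested. Of 19 tested mitochondrial genes, 17 were higher and 3 rose, with a median log2FC of 0.80, against -0.02 in parental tumors. Hemoglobin transcripts, a trace of blood, had means of 0.0188% and 0.00647% of the reads (exact p = 0.00794) and did not overlap between groups, and parental means were 0.0125% and 0.00747% (exact p = 0.0397), with overlap. Ribosomal protein genes showed no such separation (exact p = 0.881), and of 86 tested 1 rose and 7 fell (median log2FC 0.09). The part of these library differences in the gene changes was not tested. Results are therefore given also with the number of detected genes as a covariate (called the covariate) and with libraries left out, and a gene that loses its call there is said to miss, with its log2FC (or the range of it over the fits that missed). In both fits means under the covariate and also without controls 1 and 5. Where a list's median changed sign in any fit, or moved by over 1.5 times, its range over all fits follows in brackets.

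**Figure D1:**
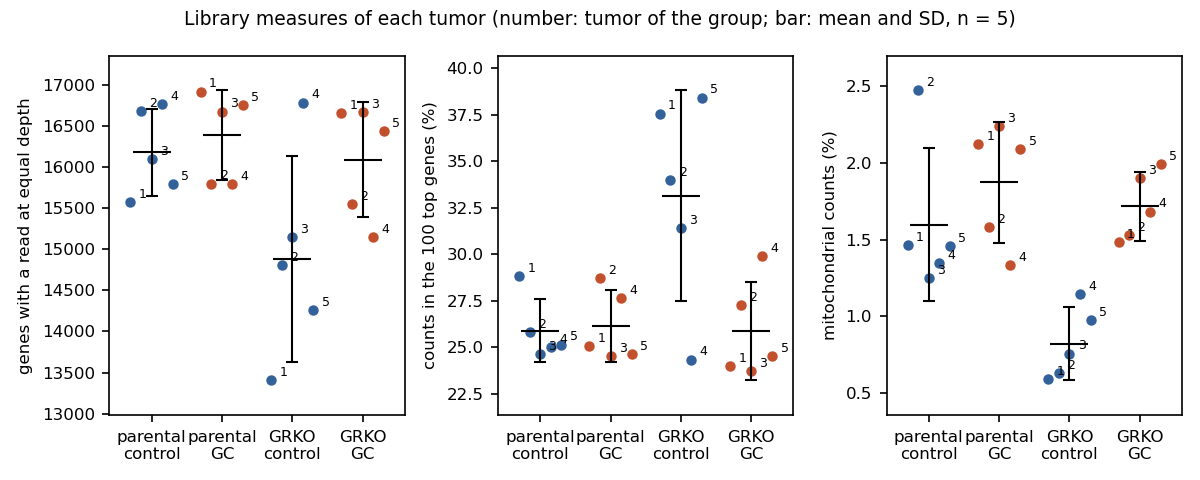
Library measures of the 20 tumors by group: genes with a read at equal depth, percent of counts in the 100 most abundant genes and percent of mitochondrial counts, with a numbered point for each tumor and bars for mean and SD (n = 5). Control GR KO tumor 4, with 16786 genes, sits with the GC-treated tumors, and the other 4 controls show between 13406 and 15144 genes.

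GC moved genes in both directions in GR KO tumors. Of 15919 genes tested, 431 were upregulated and 591 downregulated differentially expressed genes (DEGs), which had an adjusted p under 0.05 in edgeR and changed 1.5 times or more. These are 2.71% and 3.71% of the genes tested, 6.42% together, and the median log2FC of all genes was 0.05. Counts of DEGs in the gene lists stand against these shares. The 5 GC-treated tumors lay all above or all below the 5 controls for 809 genes (5.08%). Among DEGs this held for 230 of 431 upregulated (53.4%) and 266 of 591 downregulated genes (45%). Abundant transcripts held many of the downregulated DEGs: of the 2049 genes with a mean of 100 CPM or more, 204 fell (9.96%) and 62 rose (3.03%), with a median log2FC of -0.20. Of the 2613 genes under 1 CPM, 5 fell and 33 rose. Protein-coding genes made up 407 upregulated and 584 downregulated DEGs, 6.99% of the 14171 tested. In all, 16 upregulated DEGs had 0 reads in all 5 controls, and 4 downregulated DEGs had 0 reads in all 5 GC-treated tumors.

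The count of DEGs depended on single libraries. Without control tumor 4, 1305 genes rose and 1106 fell. The count was 429 without control tumor 1, 488 without control tumor 2, 546 without GC-treated tumor 1, 303 without GC-treated tumor 3 and 393 without GC-treated tumor 5. Under the covariate 83 genes rose and 135 fell, 184 of them among the 1022 DEGs. Without controls 1 and 5, which showed the fewest genes, 97 rose and 189 fell, 255 of them shared. With the share of the 100 most abundant genes as the covariate instead, 102 rose and 105 fell, 125 of them shared. Against control tumor 4 alone, assumed to vary like the other groups, 6 rose and 27 fell, 24 of them shared. DESeq2 called 720 up and 1036 down, 1008 of them shared. Of the 109 DEGs named by rule, 10 passed in each of these fits, all downregulated: *Fcgbp*, *Tnf*, *Il1b*, *Tnfrsf4*, *Ccl22*, *Tnip3*, *Tnfrsf18*, *Cd2*, *Ccl4* and *Cfd*. In the lists these are cytokine, chemokine, dendritic cell, T-cell, regulatory T-cell and checkpoint, NF-κB and fat-cell genes, with *Fcgbp* in none. Control tumor 4 was the highest control for *Fcgbp*, *Il1b*, *Ccl22*, *Tnip3*, *Cd2*, *Ccl4* and *Cfd*. The fit against that tumor alone favors downregulated genes that were high in it, so this selection depends in part on that tumor.

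**Figure D2:**
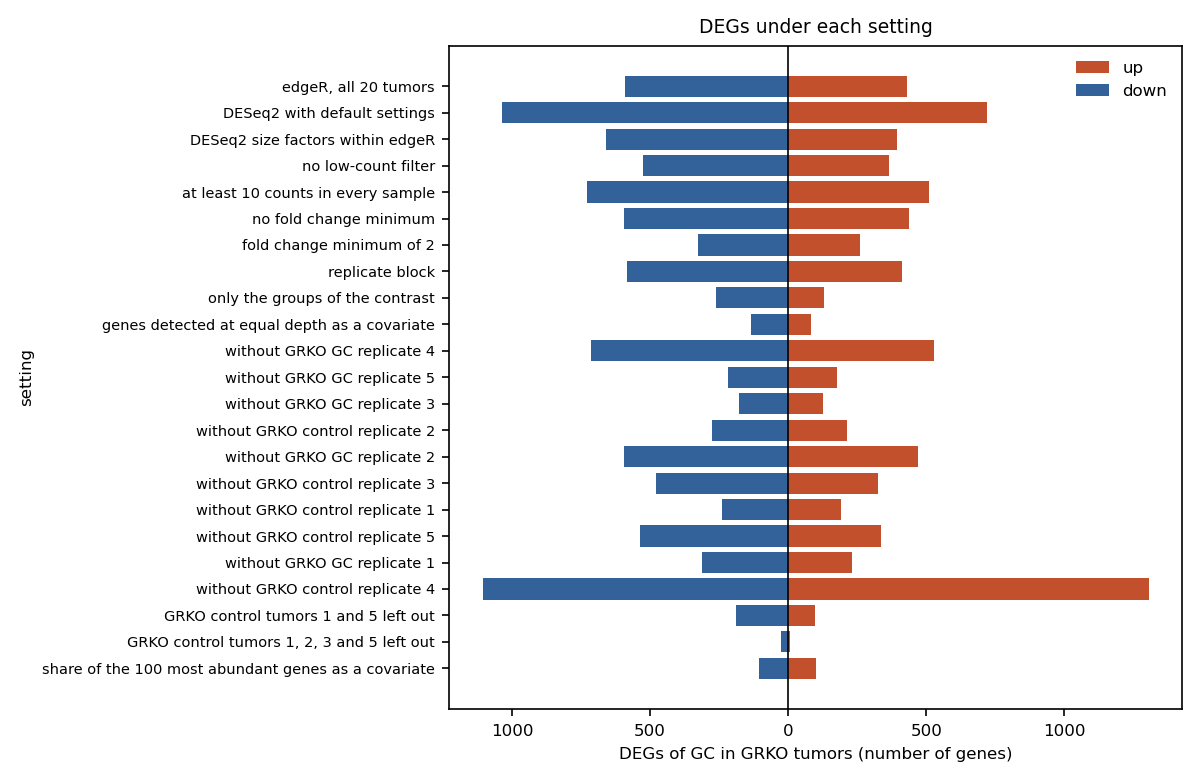
DEGs of GC against control in GR KO tumors in each fit, as numbers of genes, with upregulated genes to the right of 0 and downregulated genes to the left. The count runs from 33 with control tumor 4 as the only control to 2411 without control tumor 4, and is 1022 with all tumors.

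DEGs were also sorted by the level of each gene in cultured cancer cells. In GR KO DMSO cultures, 4334 of the tested genes (27.2%) had a mean under 0.5 CPM. They held 181 of the 591 downregulated DEGs (30.6%) and 70 of the 431 upregulated DEGs (16.2%), with a median log2FC of -0.19. The 3451 genes at 50 CPM or more in cultures (21.7%) held 189 downregulated (32%) and 157 upregulated DEGs (36.4%), with a median of -0.01. Under the covariate, the genes under 0.5 CPM in culture held 92 of 135 downregulated DEGs (68.1%) and 21 of 83 upregulated DEGs. Their share of the downregulated DEGs was 55.6% without controls 1 and 5 (26.8% of genes tested) and 19.1% without control tumor 4 (26.9% of genes tested), near that background with all tumors, above it under the covariate and without controls 1 and 5, and below it without control tumor 4. A gene silent in culture may still be made by cancer cells in a tumor, which these counts cannot tell apart from host expression.

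Many GC target genes rose in GR KO tumors. Of 29 tested targets of GR known from other tissues, 10 rose and 2 fell, with a median log2FC of 0.69 [0.40 to 0.99] against 0.05 for all genes. Of all genes tested, 2.71% rose and 3.71% fell in GR KO tumors. In parental tumors 12 passed, all upward, with a median of 1.02, where 0.433% of all genes rose and 0.345% fell (0.779% together). *Fkbp5* (chr17:28399094-28517527), a co-chaperone that lowers GR's affinity for its ligand, was at 14.2, 17.6, 33.5, 35.9 and 25 CPM in controls and 127, 76.5, 119.7, 59.7 and 133 CPM under GC (log2FC 2.03 ± 0.35, adjusted p = 0.00269). *Tsc22d3* (chrX:140539528-140600659), which encodes the anti-inflammatory protein GILZ, was at 60.8, 45.4, 71.5, 89.1 and 62.3 CPM in controls and 249.8, 247, 206, 170.0 and 249.8 CPM under GC (log2FC 1.77 ± 0.25, adjusted p = 0.000403). Both were higher in all 5 GC-treated tumors than in the highest control. *Adamts1* (chr16:85793827-85803113), a secreted metalloprotease, was at 22.7, 28, 22.7, 25.9 and 20.5 CPM in controls and 68.4, 77.8, 66.6, 85.6 and 89.8 CPM under GC (log2FC 1.70 ± 0.19, adjusted p = 3.30e-05). *Per1*, a clock gene under direct GR control, was at 12.9, 9.68, 8.4, 18.7 and 26.2 CPM in controls and 31, 32.6, 34.2, 45.9 and 41.6 CPM under GC (log2FC 1.29 ± 0.27, adjusted p = 0.00744). *Klf9*, a zinc finger factor, rose from 64.1 ± 29.3 to 152 ± 35.1 CPM (SD, n = 5, log2FC 1.25 ± 0.28, adjusted p = 0.0134). Their groups did not overlap either. Summed over the list, the level was 3026, 3533, 3359, 3166 and 2677 CPM in controls and 4003, 4294, 3399, 3687 and 3869 CPM under GC, with GC-treated tumor 3 among the controls. Under the covariate 5 targets rose and 1 fell, without controls 1 and 5, 6 rose and 2 fell, and against control tumor 4 alone 0 passed in edgeR (median 0.46). *Klf9* (1.34) missed under the covariate.

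Other targets rose, fell or did not pass. *Mt2*, a metal-binding metallothionein, rose from 322 ± 56.4 to 507 ± 76.4 CPM (SD, n = 5, log2FC 0.66 ± 0.17, adjusted p = 0.0237), whereas *Mt1* had a log2FC of -0.10 ± 0.23 and did not pass. *Anxa1*, an inhibitor of prostaglandin release, was at 10.7, 9.2, 18.6, 58.2 and 23 CPM in controls and 88.3, 30.7, 102, 29.1 and 145 CPM under GC (log2FC 1.72 ± 0.50, adjusted p = 0.0423), and control tumor 4 overlapped the GC-treated group. *Sesn1* and *Ddit4* also rose without overlap, and *Hif3a* passed with 0 reads in all 5 controls and in GC-treated tumor 2, all 3 named after their values were seen. *Cdkn1a*, a cell-cycle inhibitor, was at 258, 316, 282, 206 and 234 CPM in controls and 106, 146, 126, 185 and 141 CPM under GC (log2FC -0.88 ± 0.20, adjusted p = 0.0124). *Il1r2*, the decoy receptor for interleukin-1, was at 42.9, 47.2, 42.5, 53.2 and 41.4 CPM in controls and 17.8, 22.4, 28.1, 26 and 17.8 CPM under GC (log2FC -1.02 ± 0.19, adjusted p = 0.00439). Both fell without overlap. Targets that did not pass include *Sgk1* (log2FC 0.61 ± 0.21, adjusted p = 0.081), *Dusp1* (log2FC 1.37 ± 0.51, adjusted p = 0.0993), *Zbtb16* (log2FC 1.31 ± 0.83, adjusted p = 0.343) and *Lrrc32*, which encodes the TGF-β docking receptor GARP (log2FC -0.03 ± 0.25, adjusted p = 0.96). *Mt2* (0.52 and 0.50) and *Anxa1* (0.76 and 1.42) missed in both fits, and *Cdkn1a* (-0.62) under the covariate. *Mt2* missed without control 1 or 5 or GC-treated 1, 2, 3 or 5 (0.58 to 0.67) and *Anxa1* without control 1, 2, 3 or 5 or GC-treated 1, 3 or 5 (1.38 to 1.70).

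Among downregulated DEGs of at least 5 CPM whose groups do not overlap, the largest fold changes belonged to genes of several kinds. *Fcgbp* (chr7:28071236-28120862), whose mucin-like product binds the Fc part of IgG, was at 67.2, 43.4, 43, 89.5 and 29.1 CPM in controls and 3.48, 7.55, 6.11, 0.636 and 3.18 CPM under GC (log2FC -3.70 ± 0.42, adjusted p = 3.30e-05). *Sult5a1*, a sulfotransferase, was at 7.55, 16, 6.42, 5.87 and 12.7 CPM in controls and 1.52, 1.35, 1.48, 3.97 and 1.27 CPM under GC (log2FC -2.34 ± 0.41, adjusted p = 0.00288). *Ptgis*, prostacyclin synthase, fell from 33.1 ± 22 to 6.8 ± 2.05 CPM (SD, n = 5, log2FC -2.28 ± 0.37, adjusted p = 0.00153). These 3 were at or near 0 in GR KO cultures. *Ramp3*, a partner of the calcitonin-like receptor, fell from 54.7 ± 14.2 to 9.17 ± 4.29 CPM (SD, n = 5, log2FC -2.58 ± 0.40, adjusted p = 0.00122), and *Lce3d*, a protein of the cornified envelope, from 64.6 ± 29.2 to 14.3 ± 7.83 CPM (SD, n = 5, log2FC -2.18 ± 0.62, adjusted p = 0.0374). *Lce3d* (-1.41 and -2.20) missed in both fits. *Lce3d* missed without control 1, 2, 3 or 5 or GC-treated 1, 2, 3 or 5 (-2.29 to -1.90).

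Under the same limits, the largest increase was in *Chi3l3* (chr3:106147554-106167564), the chitinase-like protein Ym1 of alternatively activated macrophages. It was at 3.08, 0.657, 0.342, 4.6 and 7.25 CPM in controls and 46.8, 34.6, 32.5, 24.3 and 17.1 CPM under GC (log2FC 3.27 ± 0.58, adjusted p = 0.00289) and at 0 in every GR KO culture. *Serpinh1*, the collagen chaperone HSP47, was at 11.6, 19.8, 31.7, 38.2 and 17.5 CPM in controls and 84.4, 39.7, 121, 53.5 and 117 CPM under GC (log2FC 1.80 ± 0.38, adjusted p = 0.00798). *Pdgfrl*, a receptor-like protein, was at 1.03, 0.836, 1.98, 3.17 and 1.6 CPM in controls and 9.23, 3.45, 6.88, 3.23 and 19.5 CPM under GC (log2FC 2.28 ± 0.52, adjusted p = 0.0131). The groups separated for these 3, though for *Pdgfrl* GC-treated tumor 4 lay just above control tumor 4. Also without overlap, *Fcho2* of clathrin-coated pits rose by 1.94, *Sgol2*, a guardian of chromosome cohesion, by 1.99, *Ric8b*, a chaperone of G proteins, by 2.20, and *Gnpda2*, an enzyme of amino sugar metabolism, by 1.88 (log2FC). *Serpinh1* (1.09 and 1.46), *Pdgfrl* (1.47 and 2.04) and *Gnpda2* (1.22 and 1.28) missed in both fits, and *Ric8b* (1.89) under the covariate. *Pdgfrl* missed without GC-treated 5 (1.71), *Ric8b* without control 2 or GC-treated 3 or 5 (2.03 to 2.23) and *Gnpda2* without control 5 or GC-treated 1, 3 or 5 (1.66 to 1.85).

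**Figure D3:**
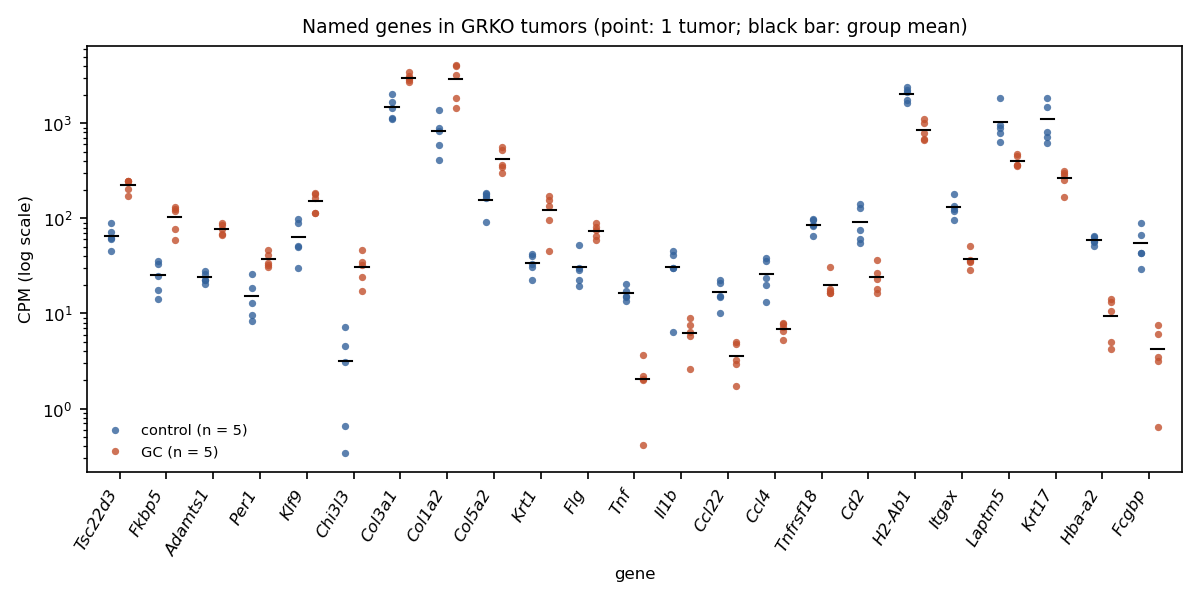
CPM of named genes on a log axis, with a point for each GR KO tumor and a bar for the mean of each group of 5. *Tsc22d3* and *Chi3l3* are higher in all 5 GC-treated tumors than in any control, and *Tnf* and *Fcgbp* are lower in all 5.

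Several inflammatory cytokine transcripts fell. Of 17 tested interleukins and TNF family ligands, 4 passed, all downward, with a median log2FC of -0.86 [-1.53 to -0.50]. *Tnf* (chr17:35199381-35202007), a master cytokine of inflammation, was at 14.8, 20.6, 15.1, 17.3 and 13.5 CPM in controls and 2.18, 1.99, 3.64, 2.07 and 0.409 CPM under GC (log2FC -2.98 ± 0.38, adjusted p = 0.00018). *Il1b* (chr2:129364570-129371139), the interleukin-1β gene, was at 6.45, 29.8, 41, 45.5 and 30.4 CPM in controls and 5.75, 2.59, 8.9, 7.63 and 6.4 CPM under GC (log2FC -2.29 ± 0.45, adjusted p = 0.00549). Every GC-treated tumor was below every control for *Tnf*, and control tumor 1 overlapped the GC-treated group for *Il1b*. *Ltb*, a ligand that organizes lymphoid tissue, was at 12.2, 11.2, 11.9, 8.42 and 8.3 CPM in controls and 1.07, 4.15, 2.16, 0.212 and 2.91 CPM under GC (log2FC -2.30 ± 0.51, adjusted p = 0.0111). *Il12b*, the shared chain of interleukins 12 and 23, was at 1.1, 8.3, 0.957, 2.01 and 12.8 CPM in controls and 0, 0.431, 0.45, 0 and 0.454 CPM under GC (log2FC -4.20 ± 0.99, adjusted p = 0.0154). Both separated the groups, and *Tnf*, *Il1b* and *Ltb* had 0 reads in all 6 GR KO cultures. *Csf1*, the growth factor of macrophages and the most abundant member, did not pass (log2FC -0.83 ± 0.29, adjusted p = 0.0802). *Il12a*, *Il23a* and *Il17a* had 0 reads in the 10 tumors. Summed cytokine levels were 319, 359, 310.2, 365 and 363 CPM in controls and 208, 210.5, 197, 201 and 231 CPM under GC, with no overlap, and 246, 377 and 219 CPM in the DMSO cultures, where *Csf1* was the main one. Against control tumor 4 alone 2 fell. *Il12b* (-3.90 and -3.75) missed in both fits, and *Ltb* (-2.17) under the covariate.

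Some receptors and intracellular feedback genes of these cytokines fell. Of 20 tested interleukin receptor genes 3 fell (median log2FC -0.10 [-0.54 to -0.01]), and of 18 NF-κB feedback genes 3 fell (median -0.30 [-0.64 to -0.16]). Of all genes tested, 3.71% fell. *Il10ra*, the ligand-binding chain for interleukin-10, was at 151, 233, 269, 281 and 136 CPM in controls and 86.8, 119, 68, 60.5 and 67.5 CPM under GC (log2FC -1.41 ± 0.30, adjusted p = 0.0086). *Traf1*, a signal adaptor of TNF receptors, fell from 50.9 ± 5.2 to 19.3 ± 6.27 CPM (SD, n = 5, log2FC -1.40 ± 0.23, adjusted p = 0.00188). Both separated the groups. *Tnip3*, an NF-κB inhibitor induced by NF-κB, went from 14.1 ± 7.13 to 3.18 ± 1.55 CPM (SD, n = 5, log2FC -2.15 ± 0.43, adjusted p = 0.00575), with control tumor 1 within the GC-treated range. *Il18rap*, a chain of the interleukin-18 receptor, and *Icam1*, an adhesion molecule for leukocytes, fell (log2FC -1.03 and -0.84). The receptor count was 5 without control tumor 4. *Il18rap* (-1.02) missed without controls 1 and 5. *Il18rap* missed without GC-treated 3 or 5 (-0.93 to -0.91) and *Icam1* without control 2, 3 or 4 or GC-treated 1, 2, 3, 4 or 5 (-0.91 to -0.64).

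Several chemokines, which steer leukocytes, fell. Of 25 tested, 6 fell and 1 rose, with a median log2FC of -0.31 [-0.98 to 0.33]. *Ccl22*, a ligand of CCR4 made by mature dendritic cells, was at 14.7, 15.4, 10.2, 22.3 and 21.1 CPM in controls and 1.74, 3.23, 5.04, 4.77 and 2.95 CPM under GC (log2FC -2.24 ± 0.34, adjusted p = 0.000994). *Ccl4*, an inflammatory chemokine of macrophages and T cells, was at 13.3, 35.3, 23.4, 38.2 and 19.9 CPM in controls and 7.98, 6.52, 7.82, 7.15 and 5.22 CPM under GC (log2FC -1.91 ± 0.34, adjusted p = 0.00288). *Ccl5*, a chemokine of activated T cells, fell from 184 ± 49.4 to 72.2 ± 19.4 CPM (SD, n = 5, log2FC -1.35 ± 0.26, adjusted p = 0.00534). For these 3 the groups did not overlap, nor for *Cxcl16*, a membrane-bound chemokine that fell from 634 ± 123 to 267 ± 65.3 CPM (SD, n = 5, log2FC -1.25 ± 0.21, adjusted p = 0.0021). *Ccl8*, the most abundant, was at 704, 1157, 568, 972 and 931 CPM in controls and 282, 782, 295, 296 and 321 CPM under GC (log2FC -1.13 ± 0.28, adjusted p = 0.0205), and GC-treated tumor 2 lay among the controls. *Cxcl13*, which attracts B cells, was at 2.2, 1.73, 3.62, 4.79 and 1.41 CPM in controls and 9.54, 22.7, 8.72, 2.7 and 7.81 CPM under GC (log2FC 1.90 ± 0.53, adjusted p = 0.0343), with GC-treated tumor 4 among the controls. Summed chemokine levels were 2386, 3078, 2151, 3229 and 2383 CPM in controls and 1517, 2341, 1761, 1341 and 1538 CPM under GC, where GC-treated tumor 2 reached into the control range. Under the covariate 5 chemokines passed, and the count was 4 without GC-treated tumor 3 or 5. *Ccl8* (-1.10 and -1.18) and *Cxcl13* (1.51 and 1.58) missed in both fits. *Ccl8* missed without control 2 or GC-treated 1, 3 or 5 (-1.07 to -1.01) and *Cxcl13* without control 1, 2 or 5 or GC-treated 1, 2, 3 or 5 (1.38 to 1.98).

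T-cell transcripts were lower in GC-treated tumors. Of 16 tested T-cell markers 15 were lower and 5 passed, all downward, where 3.71% of all genes tested fell. The list's median log2FC was -1.22. In bulk tissue, fewer cells of a type and less RNA per cell cannot be told apart. *Cd2*, an adhesion receptor of T and NK cells and the most abundant marker, was at 129, 74.6, 54.7, 143 and 60.8 CPM in controls and 22.8, 36.2, 26.6, 16.4 and 18.1 CPM under GC (log2FC -1.94 ± 0.29, adjusted p = 0.000885). *Lck*, the kinase next to the T-cell receptor, was at 58, 32.8, 37.3, 55.9 and 32 CPM in controls and 17.7, 21.8, 16, 7.47 and 10.3 CPM under GC (log2FC -1.56 ± 0.36, adjusted p = 0.0149). *Cd247*, the receptor's zeta chain, fell (log2FC -1.73 ± 0.39, adjusted p = 0.0116). All 3 separated the groups, as did *Cd6* (log2FC -1.58 ± 0.38, adjusted p = 0.0182) and *Cd3d* (log2FC -1.26, adjusted p = 0.0264), the latter named after its values were seen. The lineage markers *Cd4* and *Cd8a* had log2FC of -0.01 and -0.25 and did not pass, and *Trac* had 0 reads. T-cell transcripts summed to 298, 292, 238, 436 and 209.6 CPM in controls and 113, 156, 128, 83.5 and 90.2 CPM under GC, with no overlap, and 0.519, 1.43 and 0.215 CPM in the DMSO cultures. DEGs numbered 3 without control tumor 2 or GC-treated tumor 3 or 5, and 2 under the covariate (median -1.48). *Lck* (-1.51 and -1.53) missed in both fits, and *Cd6* (-1.47) under the covariate. *Cd6* missed without control 2 or GC-treated 3 or 5 (-1.53 to -1.32).

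Several genes of regulatory T cells fell. Of 14 tested genes of regulatory T cells and immune checkpoints 10 were lower, 4 were higher and 4 fell, with a median log2FC of -0.18 [-1.10 to 0.04]. Of all genes tested, 3.71% fell. *Foxp3* (chrX:7573644-7595245), the defining factor of regulatory T cells, was at 7.18, 23.2, 13.9, 24.6 and 22.9 CPM in controls and 2.76, 9.65, 4.09, 1.32 and 1.91 CPM under GC (log2FC -2.22 ± 0.48, adjusted p = 0.0098). *Tnfrsf18*, the costimulatory receptor GITR and the most abundant member, was at 99.3, 96.5, 84, 84.2 and 64.6 CPM in controls and 17.3, 30.5, 16.5, 18 and 16.2 CPM under GC (log2FC -2.12 ± 0.23, adjusted p = 3.30e-05). *Tnfrsf4*, the costimulatory receptor OX40, was at 109.7, 83.2, 65.3, 85.4 and 54.7 CPM in controls and 16.5, 22.6, 13.1, 15.4 and 14.1 CPM under GC (log2FC -2.29 ± 0.31, adjusted p = 0.00037). *Tnfrsf18* and *Tnfrsf4* separated the groups, and for *Foxp3* control tumor 1 lay below GC-treated tumor 2. *Icos*, a costimulator of activated T cells, fell (log2FC -1.45 ± 0.31, adjusted p = 0.00806) without overlap. *Ctla4* (0.01), *Pdcd1* (-0.11) and *Cd274* (-0.15, log2FC), genes of inhibitory checkpoints, did not pass. Nor did *Il2ra* (-0.69) and *Ikzf2* (-0.21, log2FC) of the same list. Summed over the list, tested or not, the level was 326, 320.3, 333, 464 and 298 CPM in controls and 142, 214, 159.6, 133 and 139 CPM under GC, without overlap. In this list 4 genes passed under the covariate and without controls 1 and 5, and 2 against control tumor 4 alone. 

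Cytotoxic and NK genes were lower in 11 of 14 cases (median log2FC -0.61 [-1.42 to -0.26]), and 1 passed. Of all genes tested, 6.42% passed. *Tbx21*, the factor T-bet, fell without overlap (log2FC -1.32 ± 0.40, adjusted p = 0.0499). *Nkg7*, a granule protein and the most abundant of them, did not pass (log2FC -0.78 ± 0.28, adjusted p = 0.0892). Summed, these genes were at 64.9, 103, 91.6, 148 and 78.2 CPM in controls and 67.2, 74.3, 63.8, 38.66 and 66.8 CPM under GC. GC-treated tumors 3 and 4 lay below every control, and the other 3 lay among the controls. *Tbx21* (-1.47 and -1.44) missed in both fits. *Tbx21* missed without control 1, 2, 3, 4 or 5 or GC-treated 1, 3, 4 or 5 (-1.40 to -1.12).

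Dendritic cell markers were lower in 11 of 13 cases and 5 fell, where 3.71% of all genes tested fell. The list's median log2FC was -1.06 [-1.60 to -0.86]. *Itgax*, the integrin CD11c, was at 133, 179, 119, 124 and 95.3 CPM in controls and 28.8, 51, 35.3, 34.5 and 36.6 CPM under GC (log2FC -1.80 ± 0.28, adjusted p = 0.00116). *Batf3*, a factor needed by cross-presenting dendritic cells, fell from 45.6 ± 10.4 to 14.4 ± 4.94 CPM (SD, n = 5, log2FC -1.66 ± 0.32, adjusted p = 0.00534). Neither overlapped between groups, and both were at or near 0 in culture. *Cd207*, langerin of Langerhans cells, was at 2.27, 0.358, 1.5, 0.734 and 0 CPM in controls and 0.0892, 0, 0, 0 and 0 CPM under GC (adjusted p = 0.032), so 4 of 5 GC-treated tumors had 0 reads. *Ccl22* is also in this list, and *Zbtb46*, named after its values were seen, passed with overlap (log2FC -0.99, adjusted p = 0.047). *Fscn1*, the most abundant member, is also made by the cultured cells (494, 452 and 523 CPM in DMSO) and is part of the list's sum, 1562, 1280.4, 1407, 1687 and 1119 CPM in controls and 1187, 1073, 834, 1132 and 1076 CPM under GC, which overlapped. The count was 3 without control tumor 1 or GC-treated tumor 2, 3 or 5, and 3 under the covariate and without controls 1 and 5. *Cd207* missed in both fits and without control 1 or 3 or GC-treated 2, 3 or 5 (adjusted p = 0.0504 to 0.104 in these fits).

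MHC class II genes, which present peptides to CD4 T cells, were lower in 9 of 10 cases, with a median log2FC of -0.88 [-1.26 to -0.51]. In this list 3 fell, where 3.71% of all genes tested fell. *H2-Ab1* (chr17:34257689-34269419), a class II chain and the most abundant member, was at 2241, 2133, 1614, 2423 and 1768 CPM in controls and 667, 1117, 794, 683 and 1004 CPM under GC (log2FC -1.25 ± 0.21, adjusted p = 0.0021). *H2-DMb1*, part of the peptide loader, fell from 354 ± 89.9 to 152 ± 29.6 CPM (SD, n = 5, log2FC -1.22 ± 0.21, adjusted p = 0.0021). *Ciita*, the master regulator of class II, was at 25.7, 15.9, 2.32, 9.58 and 6.27 CPM in controls and 1.92, 3.23, 1.44, 2.97 and 2.18 CPM under GC (log2FC -2.35 ± 0.50, adjusted p = 0.00804). The groups separated for *H2-Ab1* and *H2-DMb1*, and control tumor 3 overlapped for *Ciita*. The list's sum was 6219, 5937, 5066, 9706 and 5459 CPM in controls and 3303, 4861, 3809, 2939 and 4285 CPM under GC, without overlap, and 1.51, 2.53 and 0.915 CPM in the DMSO cultures. The count was also 3 under the covariate, and 0 in edgeR against control tumor 4 alone (median -1.26). Of 15 class I genes 12 were lower and 2 fell (median -0.37 [-1.04 to -0.10]): *Tapbp*, which edits class I peptides, and *Psmb10*, an immunoproteasome subunit (log2FC -1.21 and -0.74). *B2m*, the light chain of class I and the most abundant, did not pass (log2FC -0.29 ± 0.26, adjusted p = 0.517). The class I count was 0 without control tumor 1, 2 or 3 or GC-treated tumor 1, 3 or 5, 1 without GC-treated tumor 4 and 4 without GC-treated tumor 2. *Tapbp* (-0.67 and -1.23) and *Psmb10* (-0.71 and -0.84) missed in both fits, and *Ciita* (-1.82) under the covariate. *Tapbp* missed without control 1, 2 or 3 or GC-treated 1, 3 or 5 (-1.18 to -1.06) and *Psmb10* without control 1, 2 or 3 or GC-treated 1, 3, 4 or 5 (-0.77 to -0.65).

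Interferon-stimulated genes were lower in 27 of 30 cases, with a median log2FC of -0.62 [-1.08 to -0.43], but 1 passed. Of all genes tested, 6.42% passed. *Igtp*, an interferon-induced GTPase and the most abundant member, was at 270.0, 566, 337, 386 and 282 CPM in controls and 197, 342, 161, 136 and 150.4 CPM under GC (log2FC -0.90 ± 0.27, adjusted p = 0.0465), and controls 1, 3 and 5 lay below GC-treated tumor 2. Summed interferon levels were 3426, 4971, 3619, 6024 and 3620.2 CPM in controls and 3146, 3945, 2583, 1597 and 2447 CPM under GC, with overlap, and the parental median was -0.77. DEGs in it were 0 without control tumor 1, 2 or 3 or GC-treated tumor 1, 3, 4 or 5 and 5 without GC-treated tumor 2. *Igtp* (-0.92 and -1.11) missed in both fits. *Igtp* missed without control 1, 2 or 3 or GC-treated 1, 3, 4 or 5 (-0.99 to -0.69).

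Pan-leukocyte genes were lower in 9 of 10 cases and 2 fell, where 3.71% of all genes tested fell. The list's median log2FC was -0.45 [-0.73 to -0.33]. *Laptm5*, a lysosomal protein of blood cells and the most abundant member, was at 1851, 959, 892, 635 and 781 CPM in controls and 457, 472, 358, 368 and 361 CPM under GC (log2FC -1.34 ± 0.24, adjusted p = 0.00284). *Cd52*, a surface antigen of lymphocytes, was at 884, 1006, 847, 869 and 805 CPM in controls and 327, 549, 346, 421 and 439 CPM under GC (log2FC -1.08 ± 0.26, adjusted p = 0.0167). Every GC-treated tumor was below every control for both genes and for the list's sum, 3553, 2754, 2503, 2696 and 2205 CPM in controls and 1530.2, 1694, 1365, 1293 and 1484 CPM under GC (299, 279 and 318 CPM in the DMSO cultures). *Laptm5* and *Cd52* are the larger part of that sum. *Ptprc*, which encodes CD45, did not pass, with overlap (287, 740, 651, 1696 and 856 reads in controls, 898, 798, 1188, 525 and 859 under GC). *Cd53* did not pass either (135, 201, 295, 1118 and 91 reads in controls, 549, 497, 813, 400 and 748 under GC). The count was 1 without GC-treated tumor 3. *Cd52* (-0.94) missed under the covariate. *Cd52* missed without GC-treated 3 (-1.02).

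Neutrophil genes gave 1 DEG of 18, where 6.42% of all genes tested passed, with a median log2FC of -0.40 [-0.70 to -0.06]. *Stfa3*, a stefin protease inhibitor, was at 358, 391, 185, 308 and 449 CPM in controls and 42.3, 70.1, 144, 109 and 129 CPM under GC (log2FC -1.77 ± 0.35, adjusted p = 0.0055), without overlap. *S100a8*, a calcium-binding protein of neutrophils and the most abundant member, did not pass (log2FC -1.91 ± 0.86, adjusted p = 0.173). *Ly6g*, a defining marker, had 0 reads in all 10 tumors. The neutrophil sum was 1096, 1551, 769, 769.7 and 1780.1 CPM in controls and 374, 295, 624, 551 and 413 CPM under GC, without overlap, and the DEGs were 2 without control tumor 4 or GC-treated tumor 2. 

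Macrophage genes were split, with 12 of 22 higher, 10 lower and a median log2FC of 0.06 [-0.20 to 0.11]. In this list 1 rose, where 6.42% of all genes tested passed. *Mrc1*, the mannose receptor CD206, was at 11, 33.5, 21.2, 51.5 and 34.8 CPM in controls and 86.5, 49, 73.1, 40.4 and 99.5 CPM under GC (log2FC 1.20 ± 0.32, adjusted p = 0.0267), and control tumor 4 overlapped the GC-treated group. *C1qa*, a complement chain made by macrophages and the most abundant member, did not pass (log2FC -0.72 ± 0.29, adjusted p = 0.129). Macrophage genes summed to 11412, 10504, 8151, 9274 and 9092 CPM in controls and 7558, 10448, 7222, 7330.1 and 7012 CPM under GC, with overlap (152, 190.1 and 141 CPM in the DMSO cultures), and the count was 0 without control tumor 1 or 2 or GC-treated tumor 1, 3 or 5, 3 without GC-treated tumor 2 and 5 without control tumor 4. Among 14 complement genes 1 rose and 1 fell (median -0.11 [-0.85 to 0.06]). *C3*, the central component and most abundant, fell (log2FC -1.04 ± 0.30, adjusted p = 0.0395), with GC-treated tumor 2 among the controls. The complement count was 1 without control tumor 1 or 2 or GC-treated tumor 1, 3, 4 or 5. *Mrc1* (0.56 and 0.97) and *C3* (-1.11 and -1.17) missed in both fits. *Mrc1* missed without control 1, 2 or 3 or GC-treated 1, 3 or 5 (0.98 to 1.23) and *C3* without control 1, 2 or 4 or GC-treated 1, 3, 4 or 5 (-1.06 to -0.85).

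B-cell markers were low in all 10 tumors. Of 8 tested B and plasma cell genes 1 rose (median log2FC -0.45 [-1.15 to 0.38]): *Igj*, the joining chain of secreted antibodies, had 0 reads in all 5 controls and 1.07, 0.755, 1.26, 0 and 1.18 CPM under GC (adjusted p = 0.0194). Against a floor of 3 counts over the 5 controls together, its mean was at least 4.63 higher on the log2 scale. *Cd79a* and *Pax5*, defining B-cell genes, had 0 reads, and the count was 2 without GC-treated tumor 2. The list's sum was 28.9, 17.1, 17.8, 15.6 and 14.6 CPM in controls and 6.69, 17.4, 8.36, 11.4 and 11.9 CPM under GC, with *Cd79b* the most abundant and an overlap. Of 9 mast cell, basophil and eosinophil genes 0 passed in edgeR (3 with an unadjusted p under 0.05, DESeq2 1, median 0.23 [-0.14 to 0.34]), and 1 without control tumor 4. *Tpsb2*, a mast cell tryptase, was the most abundant (log2FC 0.28 ± 0.26, adjusted p = 0.536), and *Epx* of eosinophils had 0 reads. These genes summed to 127, 155, 97.5, 123 and 108 CPM in controls and 96.4, 127, 106, 131 and 147 CPM under GC, with overlap. *Igj* missed in both fits (adjusted p = 0.0765 to 0.121 in these fits).

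Several collagen genes rose. Of 23 tested collagen and matrix genes, 16 were higher and 5 rose, with a median log2FC of 0.27 [0.20 to 0.46]. Of all genes tested, 2.71% rose. *Col1a2* (chr6:4504814-4541544), a chain of type I collagen, was at 413, 590.3, 824, 1382 and 897 CPM in controls and 3189.6, 1858, 3982, 1457 and 4109 CPM under GC (log2FC 1.83 ± 0.30, adjusted p = 0.00191). *Col3a1*, the chain of type III collagen, was at 1103, 1122, 1449, 2044 and 1658 CPM in controls and 3003, 2822, 3114, 2733 and 3432 CPM under GC (log2FC 1.03 ± 0.22, adjusted p = 0.00798). *Col5a2*, a chain of type V collagen, was at 91.9, 162, 179, 169.9 and 186 CPM in controls and 347, 301, 521, 361 and 567 CPM under GC (log2FC 1.41 ± 0.21, adjusted p = 0.000885). All 3 separated the groups, as did *Col1a1*, the other chain of type I, which rose from 2004 ± 319 to 3123 ± 379 CPM (SD, n = 5, log2FC 0.64 ± 0.17, adjusted p = 0.0258), and control tumor 4 was the highest control for *Col1a1*, *Col1a2* and *Col3a1*. *Col6a1*, named after its values were seen, rose with overlap (log2FC 0.69, adjusted p = 0.0467). *Sparc*, a matrix glycoprotein and the most abundant member, did not pass (log2FC -0.18 ± 0.24, adjusted p = 0.693). In GR KO DMSO cultures *Col1a2* had 1.3, 3.1 and 1.83 CPM and *Col5a2* 239, 321 and 160.3 CPM. The list's sum was 15748, 17727, 17690.1, 16315 and 18929.5 CPM in controls and 22412, 22164, 24429, 22673 and 24848 CPM under GC, without overlap (7190.4, 7141 and 7998 CPM in the DMSO cultures). DEGs were 3 without control tumor 1 or 2 or GC-treated tumor 3 or 5, and 2 under the covariate. *Col3a1* (0.73 and 0.96) and *Col1a1* (0.50 and 0.59) missed in both fits. *Col1a1* missed without control 1, 2 or 3 or GC-treated 1, 3 or 5 (0.58 to 0.66).

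Fibroblast genes moved both ways. Of 14 tested fibroblast and pericyte markers 2 rose and 1 fell, where 2.71% of all genes tested rose and 3.71% fell. The list's median log2FC was 0.08 [0.04 to 0.17]. *Pi16*, a marker of adventitial fibroblasts, was at 77.6, 104, 58.5, 83.3 and 77.7 CPM in controls and 32.2, 49.9, 32.2, 28 and 28.9 CPM under GC (log2FC -1.23 ± 0.23, adjusted p = 0.00401), without overlap. *Postn*, the matrix protein periostin, and *Pdgfra*, a growth factor receptor of fibroblasts, rose (log2FC 0.83 and 1.17), with control tumor 4 overlapping the GC-treated group for both. *Acta2*, smooth muscle actin and the most abundant member, did not pass (log2FC -0.02 ± 0.20, adjusted p = 0.973) and was higher in DMSO cultures (5101, 3261 and 4192 CPM) than in any GR KO tumor. The list's sum was 2068, 1863, 1971, 2154 and 2264 CPM in controls and 1837, 2089.9, 2173, 2412 and 2213 CPM under GC, and the count was 1 without control tumor 1, 2, 3 or 5 or GC-treated tumor 1, 3 or 5. *Postn* (0.40 and 0.71) and *Pdgfra* (0.66 and 0.97) missed in both fits. *Postn* missed without control 1, 2, 3 or 5 or GC-treated 1, 3 or 5 (0.71 to 0.88) and *Pdgfra* without control 1, 2, 3 or 5 or GC-treated 1, 3 or 5 (0.93 to 1.20).

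Among 20 matrix proteases and their inhibitors 2 rose and 1 fell (median log2FC 0.04 [-0.13 to 0.09]). *Timp1*, an inhibitor of metalloproteases, fell (log2FC -0.98 ± 0.21, adjusted p = 0.00797), without overlap. *Timp4* was at 0, 0, 0, 0.193 and 0 CPM in controls and 1.29, 0.647, 1.89, 0.583 and 0.0454 CPM under GC (adjusted p = 0.0482), and *Adamts1* is described above. The protease count was 5 without GC-treated tumor 4 and 9 without control tumor 4. Of 32 genes of the TGF-β pathway 2 rose and 1 fell (median 0.06 [-0.04 to 0.28]), where 6.42% of all genes tested passed. *Tgfb3*, a TGF-β ligand, and *Id3*, a target of BMP signals, rose (log2FC 1.18 and 1.79). *Nrros*, a TGF-β anchor on myeloid cells, fell (log2FC -0.79 ± 0.18, adjusted p = 0.0142). *Tgfb3* and *Nrros* separated the groups, and the pathway's count was 6 without control tumor 4. *Tgfb3* (0.69 and 0.98) and *Id3* (1.51 and 1.69) missed in both fits. *Timp4* missed in both fits and without control 1, 2, 3 or 5 or GC-treated 1, 2, 3 or 5 (adjusted p = 0.0519 to 0.181 in these fits). *Tgfb3* missed without control 1 or 2 or GC-treated 3 or 5 (0.96 to 1.18).

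Vessel genes were lower in 13 of 18 cases and 2 fell, where 3.71% of all genes tested fell. The list's median log2FC was -0.59. *Kdr*, VEGF receptor 2, was at 65.1, 55.9, 49.7, 50.5 and 43.1 CPM in controls and 23.8, 29.9, 17.7, 17.6 and 16.6 CPM under GC (log2FC -1.32 ± 0.26, adjusted p = 0.00567), with no overlap. *Egfl7*, a secreted vessel factor also present in cultures, fell as well (log2FC -1.22). *Flt1*, VEGF receptor 1 and the most abundant member, did not pass (log2FC 0.28 ± 0.16, adjusted p = 0.291) and is made by the cultured cells (155, 183 and 142 CPM in DMSO). The endothelial sum was 426, 433, 449.9, 472 and 442 CPM in controls and 351, 371, 364, 377 and 366 CPM under GC, without overlap, and the count was 1 without GC-treated tumor 3. Red cell and platelet genes fell in 5 of 8 cases, with a median of -1.69. *Hba-a2*, an α-globin gene, was at 65.1, 63.3, 56.7, 50.6 and 57.2 CPM in controls and 13.2, 4.96, 4.23, 14.1 and 10.7 CPM under GC (log2FC -2.63 ± 0.36, adjusted p = 0.000403). *Hba-a1*, its neighbor, fell from 71.2 ± 27.9 to 15.9 ± 8.74 CPM (SD, n = 5, log2FC -2.16 ± 0.38, adjusted p = 0.00269), and *Hbb-bs*, a β-globin gene, fell from 69.5 ± 30.4 to 31 ± 10.9 CPM (SD, n = 5, log2FC -1.17 ± 0.31, adjusted p = 0.0261). None of these globin groups overlapped. *Itga2b*, a platelet integrin, also fell (log2FC -1.57), as did *Hbb-bt*, named after its values were seen. *Pf4*, a platelet chemokine and the most abundant member, did not pass (log2FC 0.12 ± 0.21, adjusted p = 0.754), and *Gp9* had 0 reads. The sum was 339, 433, 404, 512 and 424 CPM in controls and 257, 259.7, 276, 359 and 268 CPM under GC, where GC-treated tumor 4 lay among the controls, and the count was 2 without GC-treated tumor 3 or 5 and 3 without control tumor 1 or GC-treated tumor 2. *Egfl7* (-0.90 and -1.01) and *Itga2b* (-1.53 and -1.26) missed in both fits, and *Hbb-bs* (-1.33) without controls 1 and 5. *Egfl7* missed without GC-treated 3 (-1.16), *Hbb-bs* without control 1 or GC-treated 2, 3 or 5 (-1.26 to -1.05) and *Itga2b* without control 5 or GC-treated 1, 3 or 5 (-1.56 to -1.31).

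Epidermal genes moved both ways. Of 19 tested keratinocyte genes 3 fell and 3 rose, with a median log2FC of -0.15 [-0.50 to 0.11]. *Krt17* (chr11:100256217-100261029), a keratin of stressed and follicular epithelium, was at 1859, 1493, 626, 709 and 809 CPM in controls and 169, 300.2, 286, 314 and 253 CPM under GC (log2FC -2.06 ± 0.35, adjusted p = 0.0021). *Dsp*, the plaque protein of desmosomes, was at 1225, 1111, 756, 830.2 and 925 CPM in controls and 404, 479, 429, 481 and 347 CPM under GC (log2FC -1.18 ± 0.20, adjusted p = 0.00227). *Krt14*, the keratin of the basal layer and the most abundant member, fell (log2FC -1.42 ± 0.39, adjusted p = 0.0302). The groups separated for *Krt17* and *Dsp*, and control tumor 4 overlapped for *Krt14*. *Krt1*, a keratin of the layers above, was at 22.7, 33, 40.0, 41.9 and 30.8 CPM in controls and 45.1, 95.6, 136, 173 and 156 CPM under GC (log2FC 1.85 ± 0.32, adjusted p = 0.00234). *Flg*, the filaggrin gene of the cornifying layer, was at 29.8, 28.3, 22.6, 52.2 and 19.4 CPM in controls and 59.4, 80.6, 89.3, 65.7 and 75.5 CPM under GC (log2FC 1.28 ± 0.29, adjusted p = 0.0122). *Krt10*, the partner of *Krt1*, rose from 11.7 ± 12.5 to 51.8 ± 40.0 CPM (SD, n = 5, log2FC 2.13 ± 0.49, adjusted p = 0.0136). *Krt1* and *Flg* were higher in all 5 GC-treated tumors, and control tumor 4 overlapped for *Krt10*. Summed keratinocyte levels were 7825, 7792, 5775, 5059 and 4559 CPM in controls and 2849, 3332, 3849, 3705 and 3359 CPM under GC, without overlap, and 25.9, 26.4 and 24.8 CPM in the DMSO cultures. Means of the sum were 6202 ± 1529 and 3419 ± 388 CPM in GR KO tumors (SD, n = 5). Parental means were 3930 ± 1189 CPM in controls and 4412 ± 497 CPM under GC, so GC-treated GR KO tumors lay near parental controls. *Krt14* (-0.79 and -1.46) and *Flg* (1.16 and 1.09) missed in both fits, and *Krt10* (1.65) without controls 1 and 5. *Krt14* missed without control 1, 2 or 3 or GC-treated 1, 2, 3 or 5 (-1.47 to -1.22) and *Krt10* without GC-treated 5 (1.54).

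**Figure D4:**
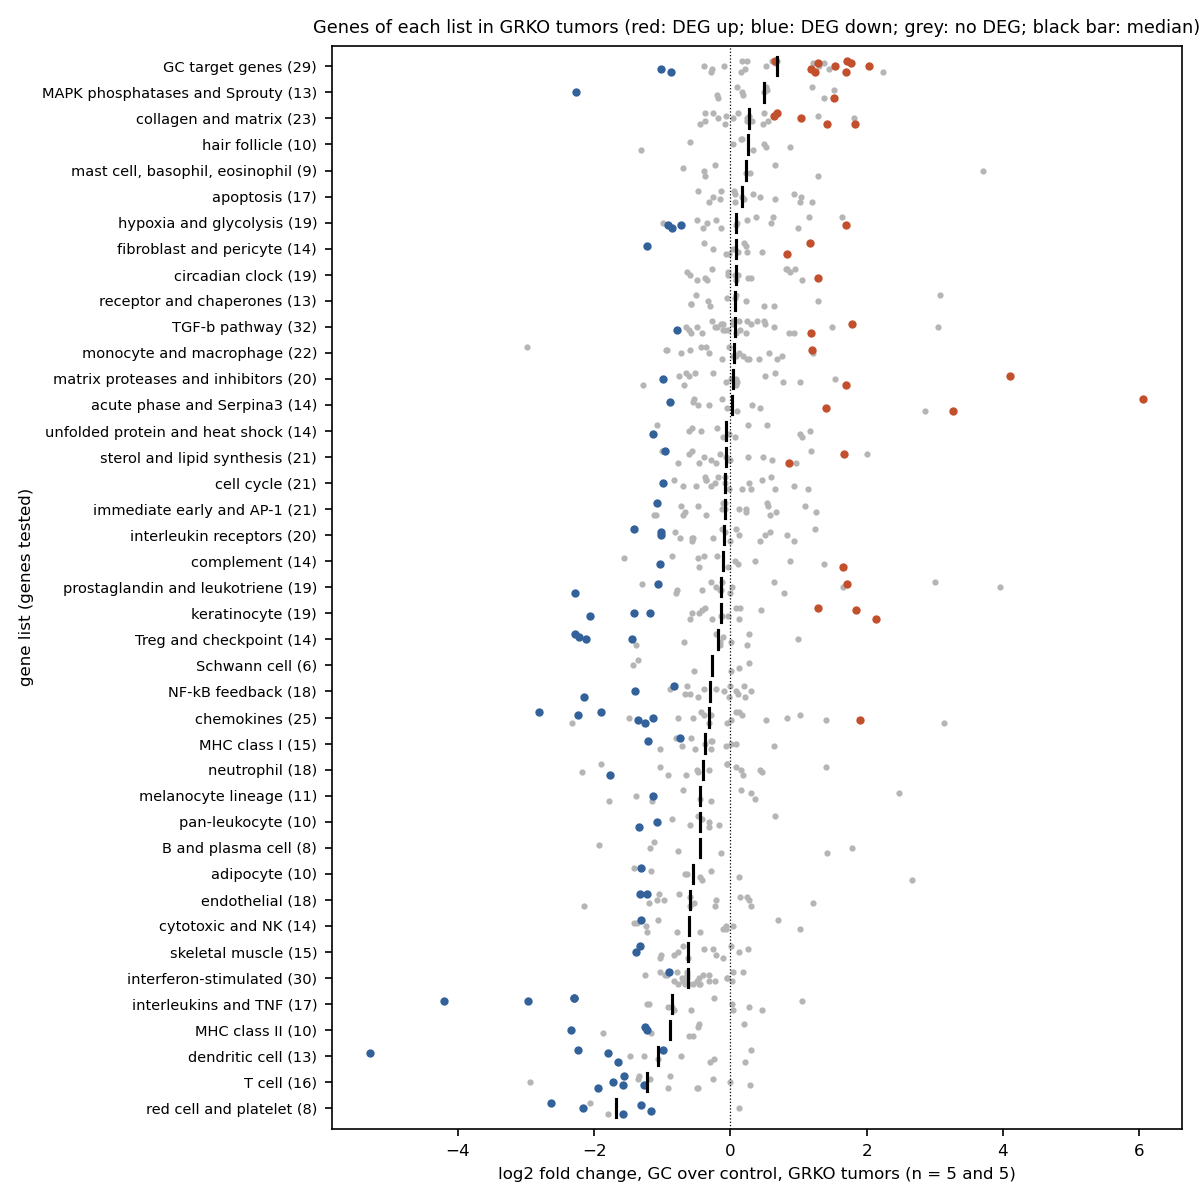
Log2 fold change of each tested member of the 41 gene lists in GR KO tumors (5 against 5), with red points for upregulated DEGs, blue for downregulated DEGs, gray for other genes and a black bar for the list's median. Genes at 0 in a whole group are not drawn, and medians run from -1.69 for red cell and platelet genes to 0.69 for GC target genes.

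Hair follicle transcripts were high in 3 of 10 tumors, and 2 muscle genes and 1 fat-cell gene fell under GC. Of 10 tested hair follicle genes 0 passed in edgeR (0 with an unadjusted p under 0.05) or in DESeq2, with a median log2FC of 0.25 [-3.77 to 5.92]. *Krt25*, a keratin of the follicle's inner sheath and the most abundant member, was at 32.9, 19.1, 0, 0.0772 and 0 CPM in controls and 0, 1.62, 0, 51.6 and 0 CPM under GC, so that a few tumors carried most of it. The follicle sum was 140.4, 44.3, 3.48, 8.34 and 7.25 CPM in controls and 7.18, 10.0, 6.88, 167 and 9.49 CPM under GC, with overlap, and *Msx2* had 0 reads. Of 15 skeletal muscle genes 12 were lower and 2 fell (median -0.62 [-0.83 to -0.39]). Of all 15919 genes tested, 7507 were lower and 3.71% fell. *Tnnc2*, fast troponin C, was at 56.5, 72.3, 61.3, 70.2 and 36.8 CPM in controls and 25, 23.7, 25.9, 16.9 and 21.7 CPM under GC (log2FC -1.39 ± 0.23, adjusted p = 0.00205), without overlap. *Myh4*, a fast myosin, also fell (log2FC -1.33), with control tumor 5 within the GC-treated range. *Acta1*, skeletal actin and the most abundant member, did not pass (log2FC -0.62 ± 0.25, adjusted p = 0.127). The muscle sum was 739, 711, 844, 808 and 521 CPM in controls and 471, 587, 644, 453 and 434 CPM under GC, with overlap, and the count was 1 without control tumor 1 or GC-treated tumor 3 or 5. Of 10 fat-cell genes 8 were lower and 1 fell (median -0.55 [-1.46 to -0.43]). *Cfd*, the protease adipsin and the most abundant of them, was at 87.2, 151, 109, 162 and 75.2 CPM in controls and 50.9, 51.1, 45.6, 50.8 and 37.1 CPM under GC (log2FC -1.31 ± 0.21, adjusted p = 0.00133), without overlap. Fat-cell genes summed to 158, 221, 182, 301 and 129 CPM in controls and 115, 109.5, 92.9, 109.7 and 95.3 CPM under GC, without overlap, and the count was 2 without control tumor 5. Of 6 Schwann cell genes 0 passed in edgeR (2 with an unadjusted p under 0.05, DESeq2 2, median -0.26 [-0.94 to 0.00]), and the count was 1 without control tumor 4 and 2 without GC-treated tumor 2. Their sum was 89.5, 86.4, 113, 91.5 and 93.2 CPM in controls and 95.1, 117, 112, 66.3 and 104 CPM under GC, with overlap (96.5, 78.7 and 91.6 CPM in the DMSO cultures), *Pmp22* the most abundant and *Cdh19* at 0. *Myh4* (-1.35) missed without controls 1 and 5. *Myh4* missed without control 1 or GC-treated 3 or 5 (-1.40 to -1.13).

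Counts of proliferation and survival genes were near or under the 6.42% of all genes. Of 21 tested cell cycle genes 1 fell, with a median log2FC of -0.08 [-0.23 to 0.18]. *E2f1*, a factor for entry into S phase, was at 323, 192, 201, 97.4 and 171 CPM in controls and 98.1, 101, 77.7, 138 and 82.7 CPM under GC (log2FC -0.98 ± 0.26, adjusted p = 0.0286), and against control tumor 4 alone its log2FC was 0.058. The cell cycle count was 0 without control tumor 1 or 2 or GC-treated tumor 1, 3 or 5, 2 without control tumor 3 or GC-treated tumor 4 and 5 without control tumor 4. Of 17 apoptosis genes 0 passed in edgeR (2 with an unadjusted p under 0.05) or in DESeq2 (median 0.17 [-0.06 to 0.41]), and the count was 1 without control tumor 4. *Mcl1*, a survival factor and the most abundant of these, had a log2FC of 0.07 ± 0.21. *E2f1* (-0.37 and -0.71) missed in both fits. *E2f1* missed without control 1 or 2 or GC-treated 1, 3 or 5 (-0.99 to -0.73).

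Glycolysis and hypoxia genes gave 3 downregulated and 1 upregulated DEG of 19, with a median log2FC of 0.09 [-0.21 to 0.17]. *Hk2*, the hexokinase that starts glycolysis, fell (log2FC -0.91 ± 0.19, adjusted p = 0.00798), without overlap. *Pfkp*, a phosphofructokinase, and *Bnip3*, a mitophagy receptor, also fell (log2FC -0.86 and -0.73). *Vegfa*, the growth factor of vessels, rose (log2FC 1.70 ± 0.48, adjusted p = 0.0338), with control tumor 4 among the GC-treated tumors. The count was 1 without control tumor 1 or 2 or GC-treated tumor 3 or 5, 2 without GC-treated tumor 1 and 8 without control tumor 4. *Pfkp* (-0.60 and -0.85), *Bnip3* (-0.52 and -0.70) and *Vegfa* (1.04 and 1.36) missed in both fits, and *Hk2* (-0.73) under the covariate. *Pfkp* missed without control 1 or 2 or GC-treated 3 or 5 (-0.84 to -0.73), *Bnip3* without control 1, 2 or 3 or GC-treated 1, 3 or 5 (-0.71 to -0.62) and *Vegfa* without control 1, 2, 3 or 5 or GC-treated 1, 3 or 5 (1.43 to 1.62).

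MAPK feedback genes were higher in 10 of 13 cases, with 1 up, 1 down and a median log2FC of 0.49 [0.02 to 0.73]. *Dusp5*, a phosphatase that inactivates ERK in the nucleus, was at 364, 302, 148, 30.7 and 112 CPM in controls and fell to a mean of 39.7 ± 3.4 CPM (SD, n = 5, log2FC -2.27 ± 0.38, adjusted p = 0.0021). Control tumor 4 lay below every GC-treated tumor, and against it alone the log2FC was 0.39. Parental means were 39.5 CPM in controls and 40.2 CPM under GC, and the difference between genotypes did not pass (adjusted p = 0.0626). *Spry1*, a Sprouty inhibitor of receptor kinases, rose (log2FC 1.52), with overlap. The MAPK count was 1 without control tumor 1, 2 or 3 or GC-treated tumor 1, 3 or 5 and 6 without control tumor 4. Of 21 immediate early and AP-1 genes 1 fell (median -0.08 [-0.33 to 0.22]), the AP-1 subunit *Jund* (log2FC -1.08), with overlap, and the count was 0 without control tumor 1 or 2 or GC-treated tumor 1, 3 or 5 and 2 without control tumor 4 or 5 or GC-treated tumor 4. *Spry1* (0.94 and 1.51) and *Jund* (-0.59 and -1.08) missed in both fits, and *Dusp5* (-1.35) under the covariate. *Spry1* missed without control 1, 2 or 3 or GC-treated 1, 3 or 5 (1.19 to 1.59) and *Jund* without control 1 or 2 or GC-treated 1, 2, 3 or 5 (-1.10 to -0.82).

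Sterol and lipid genes gave 2 up and 1 down of 21, with a median log2FC of -0.07 [-0.13 to 0.15]. *Abca1*, the cholesterol exporter, rose from 26.5 ± 5.43 to 48.1 ± 10.1 CPM (SD, n = 5, log2FC 0.86 ± 0.22, adjusted p = 0.0223). *Mylip*, a ubiquitin ligase of sterol metabolism, rose (log2FC 1.66). The groups separated for both, and the count was 1 without GC-treated tumor 1 or 5 and 7 without control tumor 4. Of 19 clock genes *Per1* alone passed (median 0.08 [-0.06 to 0.25]), and the count was 2 without control tumor 4 or GC-treated tumor 4. *Abca1* (0.46 and 0.73) and *Mylip* (1.49 and 1.76) missed in both fits. *Abca1* missed without control 1 or 2 or GC-treated 1, 3 or 5 (0.76 to 0.87) and *Mylip* without GC-treated 1 or 5 (1.46 to 1.57).

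Eicosanoid genes gave 2 down and 1 up of 19 (median log2FC -0.13 [-0.38 to -0.06]), namely *Ptgis*, *Anxa1* and *Ptges*, a prostaglandin E synthase that fell without overlap (log2FC -1.07). Their count was 1 without control tumor 1 or 3 or GC-treated tumor 3 or 5, 5 without GC-treated tumor 4 and 6 without control tumor 4. Among 14 acute phase and Serpina3 genes 3 rose and 1 fell (median 0.02 [-0.31 to 0.21]). *Serpina3n*, a protease inhibitor, rose from 23.5 ± 16 to 62.4 ± 13.2 CPM (SD, n = 5, log2FC 1.40 ± 0.34, adjusted p = 0.0169), with control tumor 4 overlapping, and *Serpina3m* was at 0, 0.0597, 0, 0 and 0 CPM in controls and 1.78, 2.43, 0.809, 0.053 and 0.954 CPM under GC (adjusted p = 0.00922). *Lrg1*, a glycoprotein of inflamed tissue, fell (log2FC -0.89 ± 0.21, adjusted p = 0.018), without overlap. The acute phase count was 2 without GC-treated tumor 3. Of 14 genes of the unfolded protein and heat shock responses 1 fell (median -0.07 [-0.21 to 0.02]), the stress factor CHOP (*Ddit3*, log2FC -1.14), and the count was 0 without control tumor 2 or GC-treated tumor 3 or 5, 2 without control tumor 5 and 4 without control tumor 4. *Lrg1* (-0.69 and -0.83) and *Ddit3* (-0.73 and -1.20) missed in both fits, and *Ptges* (-1.17) under the covariate, and *Serpina3n* (0.98) without controls 1 and 5. *Serpina3m* missed in both fits (adjusted p = 0.0564 to 0.0633 in these fits). *Ptges* missed without control 1 or 3 or GC-treated 2, 3 or 5 (-1.13 to -0.90), *Serpina3n* without GC-treated 3 (1.31), *Lrg1* without control 1 or 2 or GC-treated 3 or 5 (-0.81 to -0.76) and *Ddit3* without control 2 or GC-treated 3 or 5 (-1.09 to -0.94).

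The GC effect differed between genotypes for 31 genes in the test of the difference itself (0.195% of those tested), 20 of them higher and 11 lower in parental than in GR KO tumors. *Sult5a1* had means of 2.27 CPM in controls and 6.2 CPM under GC in parental tumors (GR KO 9.7 and 1.92 CPM, log2 difference 3.78 ± 0.58, adjusted p = 0.015). *Mt1* had 713 and 2494 CPM in parental tumors (GR KO 1049 and 981 CPM, difference 1.90 ± 0.32, adjusted p = 0.0222). *Tnnc2* had 33.5 and 47.4 CPM in parental tumors (GR KO 59.4 and 22.7 CPM, difference 1.89 ± 0.33, adjusted p = 0.0222). Of these 3, *Mt1* rose in parental tumors, and the others fell in GR KO tumors. *Trim29*, found in stratified epithelium, fell in GR KO tumors from 406 ± 153 to 141 ± 16.2 CPM (SD, n = 5, log2FC -1.53 ± 0.23, adjusted p = 0.000994) and differed by 1.72, with *M1ap* (1.58) and *Lrg1* (1.52, log2) of the same sign. In parental tumors *Trim29* had 204, 164, 186, 187 and 223 CPM in controls and 183, 240, 144, 326 and 209 CPM under GC.

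On the lower side, *Gadd45a*, a stress sensor that halts the cell cycle, had 16.6, 13, 48, 25.9 and 48 CPM in parental controls and 7.76, 9.63, 10.9, 5.71 and 7.18 CPM under GC. In GR KO tumors it had 8.72, 11.3, 15.8, 13.2 and 13.1 CPM in controls and 35.6, 13.2, 27.9, 22.8 and 55.9 CPM under GC, a log2 difference between the effects of -3.20 ± 0.52 (adjusted p = 0.0168). The gene fell with GC in parental tumors (log2FC -1.88) and rose in GR KO tumors (1.32). *Pabpc4*, a poly(A)-binding protein, had 208 and 126 CPM in parental and 100.4 and 254 CPM in GR KO tumors (-2.07 ± 0.40, adjusted p = 0.033). *Klf10* (-1.98), an early target of TGF-β, *Rcn2* (-1.94), a calcium-binding protein of the endoplasmic reticulum, and *Irs1* (-1.51, log2), the insulin receptor substrate, were also lower. In edgeR with all tumors, the immune genes *Tnf* (adjusted p = 0.269), *Cd2* (0.175), *Tnfrsf18* (0.0589), *H2-Ab1* (0.19) and *Itgax* (0.0843) did not pass this test. Nor did *Tsc22d3* (0.347) and *Fkbp5* (0.242). All 3 of *Gadd45a*, *Pabpc4* and *Rcn2* rose within GR KO tumors. In that comparison *Gadd45a* (1.08 and 1.20), *Pabpc4* (1.08 and 1.15) and *Rcn2* (0.97 and 0.87) missed in both fits. *Gadd45a* missed without control 1 or 2 or GC-treated 1, 3 or 5 (1.00 to 1.37) and *Rcn2* without control 1 or 2 or GC-treated 3 or 5 (0.77 to 1.01).

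Single tumors of either genotype decided these calls. In edgeR 0 genes passed without GR KO control tumor 2 or without parental control tumor 3, and 1284 passed without GR KO control tumor 4. The count was 6 without GR KO control tumor 1, 6, 4 and 2 without GR KO GC-treated tumors 1, 3 and 5, 21 without GR KO GC-treated tumor 4 and 67 without GR KO GC-treated tumor 2. Among parental tumors it was 9, 10 and 8 without control tumors 1, 4 and 5, 4, 3 and 5 without GC-treated tumors 2, 4 and 5, and 73 without GC-treated tumor 3. The differences of 10 named genes kept their sign in these fits, at 3.52 to 4.22 for *Sult5a1*, 1.77 to 2.06 for *Mt1*, 1.64 to 2.02 for *Tnnc2*, 1.52 to 1.84 for *Trim29* and 1.47 to 1.70 for *M1ap*. They were -3.40 to -2.88 for *Gadd45a*, -2.24 to -1.89 for *Pabpc4*, -2.12 to -1.77 for *Klf10*, -2.07 to -1.72 for *Rcn2* and -1.61 to -1.37 for *Irs1*. Under the covariate 15 genes passed, without controls 1 and 5, 4 did, and DESeq2 called 784, the 31 among them. In parental tumors alone, the 124 DEGs became 60, 76 and 62 without control tumors 3, 4 and 5, and 73, 64 and 79 without GC-treated tumors 2, 4 and 5.

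GR KO cells in culture showed 0 DEGs of 12525 tested (0%) with clobetasol propionate in edgeR and 0 in DESeq2. An unadjusted p under 0.05 was found for 237 genes (1.89%), and the smallest adjusted p was 0.760. *Tsc22d3* had 15.9, 18.2 and 19.5 CPM in the DMSO and 20.5, 14.5 and 17 CPM in the GC cultures (log2FC -0.05 ± 0.18). *Per1* had 7.53, 6.63 and 4.47 CPM and 5.53, 5.25 and 5.11 CPM (-0.23 ± 0.25). *Adamts1* had 23, 25.2 and 24 CPM and 26, 26 and 21 CPM (0.02 ± 0.16). The culture groups overlapped for these 3, which separated GC from control in GR KO tumors. *Abca1* had 7.48, 11.9 and 5.81 CPM and 20.5, 14.7 and 17.9 CPM (1.07 ± 0.27), higher in all 3 GC cultures but not past the test. The dose in culture is given as 10 µM in the sample characteristics and 1 µM in the library names. Whether the GC effect differs between tumors and cultures was not tested.

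The DNA element that GR binds was looked for in promoters, because 10 of 29 GC targets rose. Searched were its half-site AGAACA on both strands (TGTTCT on the other) and the palindrome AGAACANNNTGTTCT, which contains it, in 300-base promoters from RefSeq on GRCm38.p6. The half-site was present in 6233 of all 32851 promoters (19%), and the palindrome in 3 (0.00913%). By gene, it was present for 1795 of 11648 tested genes with a promoter (15.4%), for 43 of 319 upregulated DEGs (13.5%) and for 74 of 467 downregulated DEGs (15.8%). Among GC targets 25 of 29 had a promoter in the table, and 3 held the half-site (12%), *Cd163*, *Sgk1* and *Tsc22d3*, with the palindrome at *Sgk1*. The 2 promoters below are shown because *Tsc22d3* is the upregulated target that holds the half-site and *Sgk1* the one target with the palindrome. *Tsc22d3* lies on the minus strand at chrX:140600473-140600772 (1 of 3 promoters of the gene, half-site at position 66) and *Sgk1* on the plus strand at chr10:21993640-21993939 (1 of 6 promoters, palindrome at position 62), with the match at that position in capitals. A further half-site near the start of the *Sgk1* sequence is left in lower case. *Sgk1* itself did not pass in GR KO tumors.
Tsc22d3: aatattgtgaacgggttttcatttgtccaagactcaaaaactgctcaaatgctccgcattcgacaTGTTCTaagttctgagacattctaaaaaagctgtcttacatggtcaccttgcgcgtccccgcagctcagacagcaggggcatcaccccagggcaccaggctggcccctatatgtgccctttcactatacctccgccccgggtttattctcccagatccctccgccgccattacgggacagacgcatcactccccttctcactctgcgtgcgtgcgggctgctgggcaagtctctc
Sgk1: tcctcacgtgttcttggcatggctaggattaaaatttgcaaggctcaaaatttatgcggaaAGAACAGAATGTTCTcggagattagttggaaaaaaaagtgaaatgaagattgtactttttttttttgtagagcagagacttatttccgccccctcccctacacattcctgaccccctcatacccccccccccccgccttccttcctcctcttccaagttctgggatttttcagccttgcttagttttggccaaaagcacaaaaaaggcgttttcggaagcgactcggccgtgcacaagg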

How the data were processed

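QuantSeq libraries of 20 tumors and 11 cultures were used. The authors trimmed reads with Trim Galore 0.6.5, aligned them to GRCm38 with STAR 2.6.1d and deposited featureCounts read counts per gene on Ensembl release 75. Genes with 0.5 CPM or more in at least 3 samples were tested with edgeR 4.0.16 in R 4.3.3 (limma 3.58.1), after TMM scaling, by a quasi-likelihood F test over 20 tumors in 4 groups, or over the 11 cultures. Calls needed a Benjamini-Hochberg adjusted p under 0.05 and a fold change of 1.5. Single library measures were compared by exact permutation over the 252 splits. Bounds used a floor of 3 counts, which covers counting error only. DESeq2 1.42.0, other filters and scaling, the replicate block, the detection covariate and omission of each tumor were the alternatives. Omission of controls 1 and 5, control tumor 4 as the one control and the covariate of the 100 most abundant genes were added after the data were seen. Genes were named by a rule: known GC targets and cytokines, the 10 DEGs in each direction with the largest fold change at 5 CPM or more without overlap, for each of the 41 lists its strongest DEGs, most abundant member and defining markers, and the 5 strongest differences in each direction. Members and lists were chosen with earlier results of these data known. Some genes that the rule names are not reported here. Listed genes *Krt85* and *Lrrc33* matched no symbol. With every gene at 0 in a group set to its bound, each list's median was the same. Genes named after their values were seen were not followed over the alternatives. Tumors of the same number were not treated as pairs, since their correlation over genes averaged -0.0843 in the 5 GR KO pairs.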

Additional observations from a re-analysis of the deposited data

Results flagged for a closer look

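A single tumor stood apart from the other 4 of its group in 32 of 394 groups examined (genes, list sums and library measures), where the gap to the nearest tumor took up most of the group's range. Chance gives this in about 1 of 20 groups when values are normal and independent, and its rate for these values was not tested. Among control GR KO tumors, control tumor 4 was the one apart for 8 of 11 genes and 3 of 5 list sums. It was the highest for *Anxa1* (58.2 CPM), *Hbb-bs* (123 CPM), *Hspa5* (1114 CPM), *Krt10* (33.7 CPM), *Pdgfra* (19.5 CPM), *Timp4* (0.193 CPM) and *Vegfa* (25.5 CPM) and the lowest for *Pmepa1* (687 CPM). Its sums were the highest for MHC class I (25963 CPM), MHC class II (9706 CPM) and regulatory T-cell and checkpoint genes (464 CPM). Control tumor 1 was the lowest for *Col5a2* (91.9 CPM) and the highest for *Laptm5* (1851 CPM) and for the B and plasma cell sum (28.9 CPM). The other two were *Serpina3m* in control tumor 2 (0.0597 CPM) and the Schwann cell sum in control tumor 3 (113 CPM), both the highest.

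Among GC-treated GR KO tumors, tumor 2 was the highest for *C3* (591 CPM), *Ccl8* (782 CPM), *Nrros* (114 CPM), *Pi16* (49.9 CPM), *Tnfrsf18* (30.5 CPM) and *Zbtb16* (9.22 CPM) and for the macrophage sum (10448 CPM). GC-treated tumor 4 was the highest for *Krt25* (51.6 CPM), *Sult5a1* (3.97 CPM) and the sums of hair follicle (167 CPM), matrix protease and inhibitor (6681 CPM) and red cell and platelet genes (359 CPM), and the lowest for *Myh4* (5.46 CPM). GC-treated tumor 1 was apart for *Cd207* (0.0892 CPM), the one such tumor with reads, and GC-treated tumor 5 for *Krt10* (121 CPM) and *Rcn2* (60.6 CPM).

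The GC effect differed between parental and GR KO tumors in the test of the difference for 11 of the named genes, given as parental minus GR KO on the log2 scale. It was 3.78 for *Sult5a1*, 1.90 for *Mt1*, 1.89 for *Tnnc2*, 1.72 for *Trim29*, 1.58 for *M1ap* and 1.52 for *Lrg1*. The effect was -3.20 for *Gadd45a*, -2.07 for *Pabpc4*, -1.98 for *Klf10*, -1.94 for *Rcn2* and -1.51 for *Irs1*.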

How the results depend on the processing

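The number of DEGs moved with the settings below, and except where fewer tumors or genes were tested the cause was not tested. For GC in GR KO tumors, against 1022, it was 1756 in DESeq2, 583 with a fold change of 2, 391 with the 10 tumors fitted alone, 218 with the number of detected genes as a covariate and 207 with the share of the 100 most abundant genes as one. It was 286 without control tumors 1 and 5, 33 with control tumor 4 as the one control, and 303 to 2411 with single tumors left out. For the difference between genotypes, against 31, it was 784 in DESeq2, 49 without the low-count filter, 66 with at least 10 counts in every tumor, 144 with a replicate block, 15 and 4 with the covariates, 4 and 0 in edgeR without those controls, and 0 to 1284 with single tumors left out. For parental tumors, against 124, it was 376 in DESeq2, 523 and 353 with the covariates, and 60 to 178 with single tumors left out. The difference in detected genes ran from 842.65 to 1687.65. Of the 109 named DEGs, 109 passed in DESeq2, 106 without the filter, 104 with the replicate block, 92 at a fold change of 2, 74 in the 10 tumors alone, 56 and 42 with the covariates and 60 without controls 1 and 5. With control tumor 4 as the one control 10 passed, 97 kept their direction only, and *E2f1* (0.058) and *Dusp5* (0.39, log2FC) reversed. Cultures gave 0 DEGs in edgeR under every setting run on them, which were the filters, scalings, groups alone, replicate block and single cultures left out, and 0 in DESeq2.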
